A study of Homo sapiens with 6 samples.

Results

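Of the NF-kB inflammatory response, 10 genes are described here, out of 58735 gene IDs measured in each library: the chemokine genes CXCL8, CXCL1, CXCL2, CXCL3 and CCL20, the cytokine gene IL32, the adhesion gene ICAM1, the prostaglandin synthase gene PTGS2, and the feedback inhibitor genes NFKBIA and TNFAIP3. They were found by name among the deposited values, and all 10 were present. They were chosen with their levels in these same libraries in view, so their levels and fitted differences are given as a description. No p-value of a single one of them is printed. Counts of those past the significance threshold are given below, also as a description only, and are no test of these genes. Apart from that of KRT17, the p-values printed below concern 140 other genes of the same pathways. The lists of these genes were also chosen with earlier results of these data known.

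All samples are labelled NCI-N87, a cell line from a human gastric carcinoma that is known to carry many copies of ERBB2. The groups KO1 and KO2 carry the genotype KRT17 knockout, and the third group, WT, is the wild-type line, with 2 libraries of total RNA in each of the 3 groups. The labels do not say whether KO1 and KO2 are clones, pools or different guides, or whether replicates came from separate cultures. Each p-value sets a difference only against the spread between libraries of a group, estimated over all 3 groups and drawing on other genes. That spread may be technical. The series title links keratin 17 with YAP, IL6 and the loss of E-cadherin in diffuse gastric cancer.

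NF-kB is a family of dimeric transcription factors that inhibitor proteins hold in the cytoplasm. Signals from TNF, interleukin or Toll-like receptors activate a kinase complex that removes the inhibitor, and the dimers then switch on chemokines, adhesion molecules and their own inhibitors. In gastric epithelium this response is known from Helicobacter infection, where CXCL8 attracts neutrophils.

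Levels are FPKM as the authors scaled them, read numbers divided by exon length and a total per library. Depth, recovered from the FPKM steps, was 17599759 to 22852340 reads per library. The authors' total was 0.945 and 0.936 times this depth in the WT libraries, 1.03 and 1.04 times in KO1 and 1.05 times in both KO2 libraries. Relative to WT, knockout levels are therefore lower than scaling by depth alone would give. KRT17 was at 2.35 ± 0.0823 FPKM in KO1, 10.9 ± 0.660 in KO2 and 746 ± 10.1 in WT (SD, n = 2 each). The knockout libraries also differed from WT in genes that mark the line. The epithelial adhesion gene EPCAM was at 2.91 and 3.07 FPKM in KO1 and KO2, against 186 in WT, and the E-cadherin gene CDH1 was at 0.155 and 0.494, against 59.6. KRT19 had 10 reads in KO1 and 0 in KO2, against 161100 in WT, and ERBB2 was at 5.82 and 5.29 FPKM in KO1 and KO2, against 1387 in WT. Summed over 8 epithelial markers, the level was 529 to 540.0 FPKM in KO1, 448 to 450.4 in KO2 and 3943 to 4054 in WT. All 8 were lower in both groups, also the keratins that remained abundant: KRT7 (125 and 105 FPKM in KO1 and KO2, against 153 in WT), KRT18 (180 and 147, against 562) and KRT8 (196 and 166, against 1148). Fibroblast markers (8) summed to 44.5 to 45.0 FPKM in KO1, 55.3 to 57.8 in KO2 and 0.760 to 0.907 in WT. LUM was at 28.8 and 30.5 FPKM in KO1 and KO2, against 0 reads in WT, and DCN at 5.84 and 8.90, against 1 read. COL1A1 was at 9.21 and 15.6 FPKM, against 0.777, and PDGFRB at 0.601 and 1.25, against 0.0200. COL3A1 had 95 reads in KO1, 89 in KO2 and 2 in WT. The other markers did not rise alike. COL1A2 had 8 reads in KO1, 2 in KO2 and 0 in WT, THY1 had 2, 2 and 6, and PDGFRA had 0 throughout. Whether the knockout libraries derive from the line in the WT libraries was not tested, and each difference from WT below is one between these libraries. The part of these differences in the results below was not tested. In the comparison of KO2 with KO1 no WT level enters the difference, though the WT libraries share in the estimate of the spread. They also count in the filter on low values. Some genes near 0 in both knockout groups, such as CXCL5 and CXCL14, were therefore tested there through WT alone.

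NF-kB dimers bind short sites in DNA, and such sites are known in the promoters of several of the genes. The promoter windows below are RefSeq sequences (GRCh38.p14), read 5′ to 3′ on each gene's strand and lying before the RefSeq start of the gene. They are shown because 9 of the 10 genes hold the letters GGNNTTTCC, on either strand, in the 250 bases before a start, and PTGS2 does not. Capitals mark these letters. In the CXCL8 window they also mark TGANTCA, the letters of an AP-1 site. The windows of CXCL2, CXCL3, CCL20, IL32, ICAM1 and TNFAIP3 overlap the gene spans given further below. Those spans come from GENCODE, which starts these genes earlier than the RefSeq start used here.
CXCL8 (chr4:73740424-73740505, + strand): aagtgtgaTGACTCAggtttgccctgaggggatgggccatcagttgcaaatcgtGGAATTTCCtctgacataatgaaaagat
CXCL1 (chr4:73869305-73869334, + strand): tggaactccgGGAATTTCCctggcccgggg
CXCL2 (chr4:74099253-74099282, - strand): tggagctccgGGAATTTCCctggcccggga
CXCL3 (chr4:74038748-74038777, - strand): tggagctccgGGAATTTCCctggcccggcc
CCL20 (chr2:227813752-227813781, + strand): ttgatcaatggGGAAAACCCcatgtggcaa
IL32 (chr16:3065298-3065327, + strand): tactcagGGAGTTTCCccagccagctgtcc
ICAM1 (chr19:10270924-10270953, + strand): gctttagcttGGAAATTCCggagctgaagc
NFKBIA (chr14:35404811-35404840, - strand): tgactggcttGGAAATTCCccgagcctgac
TNFAIP3 (chr6:137867187-137867216, + strand): actttGGAAAGTCCcgtGGAAATCCCcggg

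Of all 27305 genes with a RefSeq promoter of this length, 6.69% held GGNNTTTCC on either strand in at least 1 promoter. Of the 111 such genes in the other pathway lists, 28 held it (25.2%). The narrower form GGAATTTCC, which is contained in the first, was found in 0.502% of all genes and in 6 of the 10: CXCL8, CXCL1, CXCL2, CXCL3, ICAM1 and NFKBIA. CXCL8 was the only one of the 10 with TGANTCA, a motif present in 8.06% of all genes. The 30-base windows of CXCL1 and CXCL2 were identical at 93.3% of positions, and those of CXCL1 and CXCL3 at 90%. A match describes letters in this window and not binding, and other spellings of the site were searched before these were chosen.

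CXCL8 (ENSG00000169429, GRCh38 chr4:73740506-73743716) encodes the chemokine that draws neutrophils through the receptors CXCR1 and CXCR2. It was at 27.2 and 24.7 FPKM in the KO1 libraries, 1.86 and 1.75 in KO2, and 3.10 and 2.80 in WT. The order was KO1, WT, KO2, and no 2 groups overlapped. KO1 was 8.80-fold above WT, 2.77 ± 0.07 on the log2(FPKM + 1) scale (difference ± SE from the limma fit), and KO2 was 1.63-fold below WT (-0.49 ± 0.07). KO2 was 14.4-fold below KO1 (-3.26 ± 0.07), the widest gap between the knockout groups among the 10 genes on the log2(FPKM + 1) scale.

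CXCL1, CXCL2 and CXCL3 encode closely related chemokines that act through CXCR2, and they lie in the same cluster as CXCL8 on chromosome 4. CXCL1 (chr4:73869393-73871242) was at 4.99 and 3.77 FPKM in KO1, 0.827 and 0.540 in KO2, and 5.82 and 7.81 in WT. Its order was WT, KO1, KO2, with no overlap, but the KO1 and WT libraries lay closest (-0.54 ± 0.18 log2) and KO2 lay 9.98-fold below WT. CXCL3 (chr4:74036589-74038807) had the same order, at 1.02 and 1.03 FPKM in KO1, 0.368 and 0.437 in KO2, and 2.65 and 2.45 in WT. CXCL2 (chr4:74097035-74099293) was at 3.54 and 3.49 FPKM in KO1, 1.39 and 1.58 in KO2, and 2.19 and 1.16 in WT. Its KO1 libraries were highest, while KO2 and WT overlapped and did not differ beyond the spread of the WT pair (-0.08 ± 0.19 log2). The transcripts of CXCL2 and CXCL3 share an identical run of 178 bases, and those of CXCL1 and CXCL2 one of 77 bases. The counting of reads that map to several places is unstated in the labels and notes, and the split of reads among CXCL1, CXCL2 and CXCL3 is therefore uncertain. With CXCL8 the longest run shared was 18 bases.

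Of 9 protein-coding genes from CXCL8 to CXCL2 along chromosome 4, 5 had more than 1 read in any group. Besides CXCL8, CXCL1, CXCL2 and CXCL3 this was CXCL5, another neutrophil chemokine gene, with 5 reads in KO1, 1 read in KO2 and 385 reads in WT, where it was at 3.78 ± 0.308 FPKM (SD, n = 2). It fell in both groups (-2.20 ± 0.09 log2 in KO1 and -2.24 ± 0.09 in KO2, limma adjusted p = 1.49e-05 and 1.36e-05). Neighbours in the cluster therefore stood on both sides of WT in KO1, with CXCL8 above it and CXCL5 below it. CXCL6, PF4V1 and PF4 had 0 reads in every library, and PPBP had 1 read in all.

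CCL20 (ENSG00000115009, chr2:227805739-227817564) encodes a chemokine for CCR6-bearing lymphocytes and dendritic cells. It was the lowest of the 10 in KO2 and WT, at 1.13 and 1.35 FPKM in KO1, 0 and 0.0676 in KO2, and 0.203 and 0.342 in WT. The order was KO1, WT, KO2, without overlap. KO1 was 4.55-fold above WT. KO2 rested on 2 reads in all. A count of 0 in its first library allows up to 3 reads, or 0.0960 FPKM, so no fold is given.

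IL32 (ENSG00000008517, chr16:3065297-3082192) encodes a cytokine of epithelial and lymphoid cells that induces other inflammatory cytokines. It had the highest level of the 10 in both knockout groups and the widest gap to WT. Its values were 54.8 and 54.1 FPKM in KO1, 26.8 and 26.4 in KO2, and 2.55 and 2.27 in WT. The groups stood far apart, KO1 22.6-fold and KO2 11.0-fold above WT, while libraries of a group differed by less than 0.3 FPKM in WT and less than 1 FPKM in the knockouts. KO2 was 2.04-fold below KO1.

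ICAM1 (ENSG00000090339, chr19:10270835-10286615) encodes the surface ligand through which leukocyte integrins attach to epithelium and endothelium. It was at 14.0 and 13.5 FPKM in KO1, 4.45 and 4.51 in KO2, and 2.20 and 2.23 in WT. The order was KO1, KO2, WT, with differences from WT of 2.20 ± 0.04 log2 in KO1 and 0.77 ± 0.04 in KO2. Its overlapping antisense genes held at most 6 reads each in any library.

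PTGS2 (ENSG00000073756, chr1:186671791-186680427) encodes the inducible cyclooxygenase that makes the precursor of prostaglandins. It was at 8.79 and 8.80 FPKM in KO1, 7.15 and 7.58 in KO2, and 0.773 and 0.765 in WT. KO1 was 11.4-fold and KO2 9.58-fold above WT, and they lay close to each other (KO2 minus KO1 -0.23 ± 0.05 log2, 1.19-fold). This was the narrowest gap between KO2 and KO1 among the 10 genes.

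The inhibitor genes were higher in both knockout groups than in WT. NFKBIA (ENSG00000100906, chr14:35401511-35404749), whose product is the inhibitor that binds NF-kB dimers and is itself a rapid NF-kB target, was at 36.3 and 34.4 FPKM in KO1, 23.3 and 21.5 in KO2, and 8.24 and 8.79 in WT. It was the most abundant of the 10 genes in WT. KO1 was 4.15-fold and KO2 2.63-fold above WT. TNFAIP3 (ENSG00000118503, chr6:137867188-137883312), which encodes a ubiquitin-editing enzyme that ends NF-kB signalling, was at 18.1 FPKM in both KO1 libraries, 4.75 and 4.59 in KO2, and 2.66 and 2.39 in WT. KO1 was 7.16-fold and KO2 1.85-fold above WT, so KO2 stood closer to WT than to KO1. An antisense gene overlaps TNFAIP3 and held 98 and 117 reads in KO1, 50 and 48 in KO2, and 27 and 18 in WT, against 4210, 900 and 512 summed reads of TNFAIP3. Whether the counting used strand is unstated in the labels and notes.

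**Figure D1:**
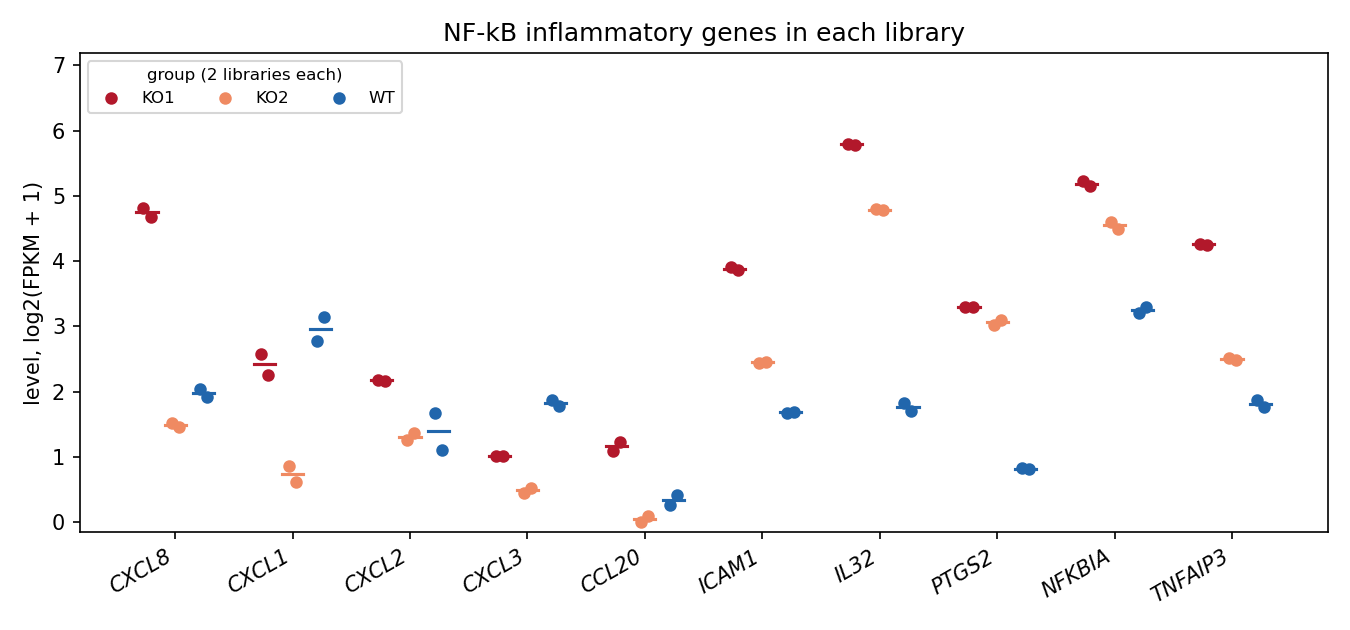
Level of each of the 10 genes as log2(FPKM + 1), with a point for each library and a bar at the mean of the 2 libraries of KO1, KO2 and WT. CXCL8 stands highest in KO1 and lowest in KO2, IL32, ICAM1, PTGS2, NFKBIA and TNFAIP3 stand above WT in both knockout groups, and CXCL1 and CXCL3 stand highest in WT.

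Set side by side, the 10 genes fell into 3 patterns. ICAM1, IL32, PTGS2, NFKBIA and TNFAIP3 had all libraries of both knockout groups above WT. CXCL8 and CCL20 had KO1 above WT and KO2 below it, and CXCL2 had KO1 above WT with KO2 overlapping WT. CXCL1 and CXCL3 had both groups below WT. In KO1, 8 of the 10 stood wholly above WT and 2 below, where 45.1% of 16046 tested genes stood above and 44% below. In KO2, 5 stood above, 4 below and 1 overlapped WT, where 44.2% of tested genes stood above and 44.3% below. Both comparisons use the same WT libraries.

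All 10 entered the limma fit, whose filter asked for 1 FPKM or more in 2 libraries. CCL20 reached that level only in KO1 and PTGS2 only in KO1 and KO2, so these could enter only by being high there. As a description of genes chosen on these values, 8 of the 10 were past an adjusted p of 0.05 and higher and 2 lower in KO1, where 39.3% and 38.6% of all tested genes were. In KO2, 5 were past it and higher and 3 lower, where 39.1% and 39.8% of all tested genes were. The count of 2 lower in KO1 was 1 without KO1 replicate 2, either KO2 library or either WT library. The genes were chosen on these contrasts, and on that of KO2 with KO1 below. Their counts therefore cannot be weighed against the shares of all tested genes, and nothing is read from them.

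**Figure D2:**
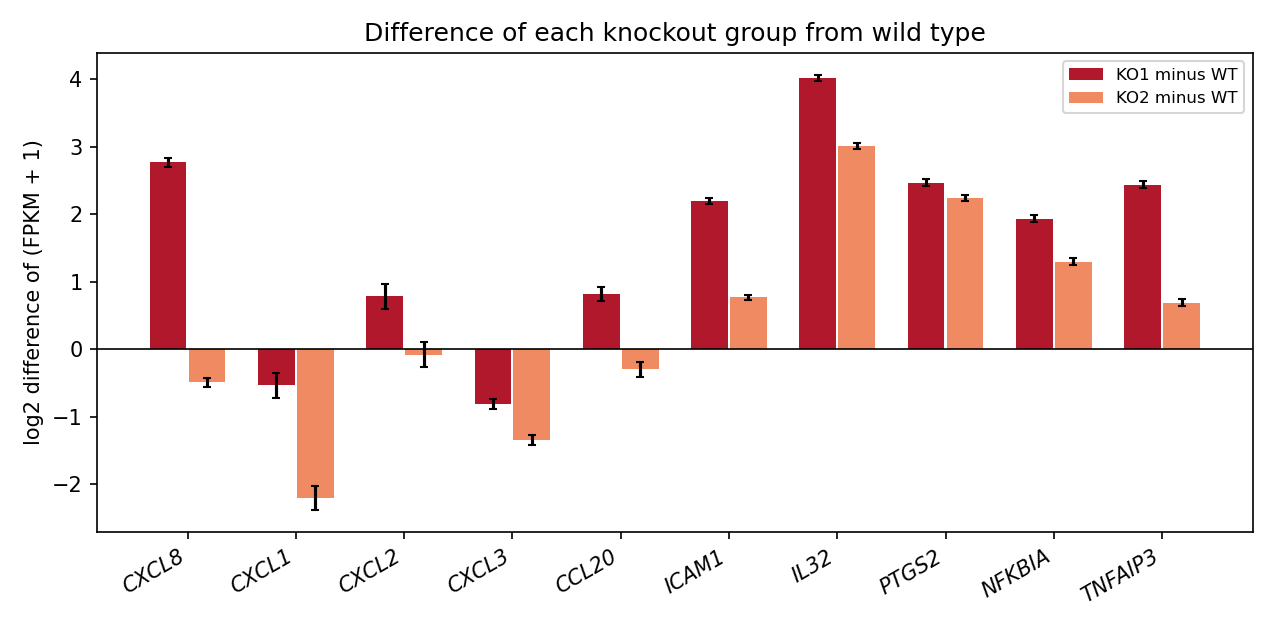
Difference of KO1 and of KO2 from WT for each of the 10 genes on the log2(FPKM + 1) scale; bars are the fitted differences and whiskers their SE. The KO1 bar is higher than the KO2 bar for all 10 genes, with the widest gap at CXCL8 and the narrowest at PTGS2.

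All 10 genes were lower in KO2 than in KO1, without overlap of libraries, where 35.6% of tested genes stood below in this way and 29.2% above. All 10 were called lower, where 15% of tested genes were called lower and 11.2% higher. Without a filter on low values or with a replicate block 9 were called lower, and not all 10 were with any single library left out. The genes were chosen on these levels, so this count cannot be weighed against those shares and is no support for a direction. KRT17 went the other way, with 10.9 FPKM in KO2 and 2.35 in KO1 (1.82 ± 0.05 log2, limma adjusted p = 1.94e-04).

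To see how the rest of the pathway stood, 140 other genes in 7 lists were examined. The lists were also chosen with earlier results of these data known, so their counts are no independent support. Of these, 88 passed the filter and 52 did not. Between KO2 and KO1, 40 of the 88 were called lower and 4 higher by limma at a Benjamini-Hochberg adjusted p below 0.05 (45.5% and 4.55%), beside 15% and 11.2% of all tested genes. Their median difference was -0.15 log2. The 4 higher genes, named after their values were seen, were IL1RAP, TRADD, MMP9 and CXCL16, and without any single KO1 or KO2 library only 1 remained. Against WT, 41 were called higher and 34 lower in KO1, and 31 higher and 44 lower in KO2, beside 39.3% and 38.6%, and 39.1% and 39.8%, of all tested genes. The same shares of all tested genes stand beside the counts of single lists below. Bulk RNA cannot tell fewer cells of a type from less RNA per cell in any of these comparisons.

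**Figure D3:**
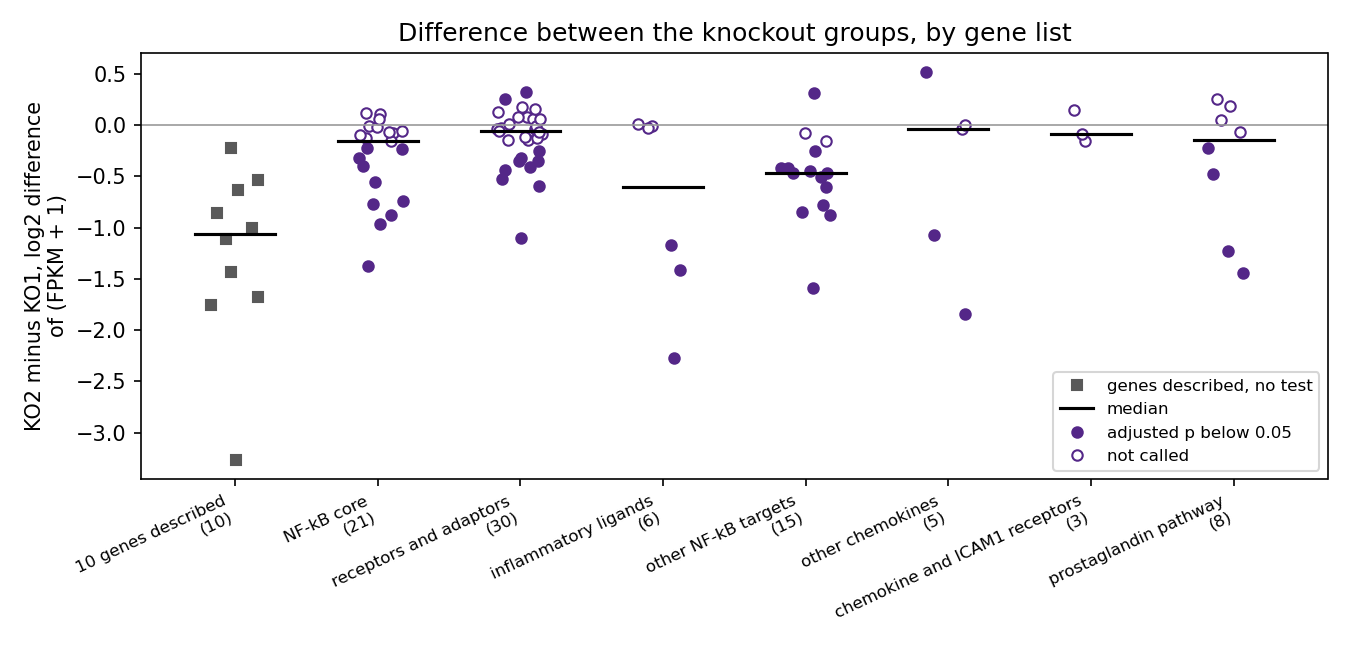
KO2 minus KO1 difference of single genes on the log2(FPKM + 1) scale, for the 10 genes described (squares, no test) and the tested genes of 7 pathway lists (filled circles called, open circles not called), with list medians as lines and the number of genes in brackets. Of the 7 lists, inflammatory ligands and other NF-kB targets have the lowest medians, -0.60 and -0.46, and the list of receptors and adaptors has a median of -0.06.

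The NF-kB subunit genes differed among themselves. NFKB2, whose product pairs with RelB in the non-canonical pathway, was at 35.0 and 34.8 FPKM in KO1, 17.2 and 17.6 in KO2, and 24.2 and 25.1 in WT. By limma it rose in KO1 (0.48 ± 0.03 log2, adjusted p = 6.24e-05) and fell in KO2 (-0.48 ± 0.03, adjusted p = 6.14e-05). RELB, its partner, fell in both and far more in KO2. It was at 6.95 ± 0.0446 FPKM in KO1, 2.07 ± 0.0915 in KO2 and 9.29 ± 0.407 in WT (SD, n = 2 each), and KO2 was 3.36-fold below KO1 (limma adjusted p = 3.68e-04).

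NFKB1, which encodes the usual partner of RelA, fell to 10.1 FPKM in KO1 and 5.06 in KO2, against 13.8 in WT. RELA, the main activating subunit, rose 1.43-fold in KO1 and 1.35-fold in KO2 (limma adjusted p = 6.44e-05 and 1.19e-04). It was not called between KO2 and KO1 (-0.08 ± 0.03 log2, adjusted p = 0.141). REL was lower than WT by a like amount in both groups (-0.50 ± 0.07 log2 in KO1 and -0.51 ± 0.07 in KO2, limma adjusted p = 0.00139 and 0.00127). Thus RELB, NFKB2 and NFKB1 fell in KO2 relative to KO1 while RELA and REL were not called.

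In the whole core list of subunits, inhibitors and kinases, 21 of 21 genes were tested. KO1 had 7 higher and 11 lower than WT, and KO2 had 4 higher and 13 lower. Between KO2 and KO1, 10 were lower and 0 higher in the limma fit, 6 lower without KO1 replicate 2, and 1 was higher under quantile normalization, library-size scaling or voom. NFKBIB, an inhibitor gene related to NFKBIA, fell to 10.3 and 8.02 FPKM in KO1 and KO2, against 16.1 in WT, whereas NFKBIA was above WT in both. TAB3, an adaptor of the kinase TAK1, rose 2.76-fold in KO1 and 2.63-fold in KO2.

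Receptors and adaptors upstream of NF-kB (38 genes, 30 tested) went both ways, near the shares of all tested genes. In KO1 14 were higher and 10 lower (46.7% and 33.3%), beside 39.3% and 38.6% of all tested genes. In KO2 12 were higher and 13 lower (40% and 43.3%), beside 39.1% and 39.8%. IRAK1, a kinase of the interleukin-1 and Toll-like receptor pathway, fell to 34.1 and 33.9 FPKM in KO1 and to 27.4 and 25.5 in KO2, against 85.6 and 88.9 in WT (limma adjusted p = 5.99e-06 in KO1). Its relative IRAK2 rose to 7.06 FPKM in KO1 and 2.75 in KO2, against 1.29 in WT, and KO2 was 2.56-fold below KO1 (limma adjusted p = 0.00119). LTBR, the lymphotoxin receptor gene, and RIPK2, the kinase of the NOD receptors, fell in both groups (-1.03 and -1.07 log2, and -0.89 and -1.33, in KO1 and KO2). OTULIN, a deubiquitinase that restrains this signalling, rose by 0.78 and 0.79 log2. Between KO2 and KO1, 9 genes were lower and 2 higher. Without KO1 replicate 1, 5 were lower, and without any single knockout library 0 were higher.

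Inflammatory ligands were mostly near zero, with 6 of 16 tested. KO1 had 3 higher and 3 lower than WT, KO2 had 2 higher and 4 lower, and between KO2 and KO1 3 were lower and 0 higher. Without either WT library 1 was higher in KO2 than in WT. TNF had 50 reads in KO1, 3 in KO2 and 0 in WT. It was at 0.646 FPKM in KO1, at least 7.16-fold above the floor of 3 reads per library in WT, and was not tested. IL1A and IL1B were below 0.4 FPKM in every library. IL6 had the same order of knockout groups as CXCL8, at 5.74 and 5.76 FPKM in KO1, 0.271 and 0.547 in KO2, and 0 in both WT libraries, and it fell by 2.27 log2 in KO2 relative to KO1 (limma adjusted p = 6.42e-04).

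CSF1, the macrophage colony-stimulating factor gene, was at 5.73 ± 0.230 FPKM in KO1, 1.53 ± 0.154 in KO2 and 0.627 ± 0.0199 in WT (SD, n = 2 each). It rose in both groups and was 3.74-fold lower in KO2 than in KO1 (limma adjusted p = 6.58e-04). Of the ligand genes that WT expressed, 3 fell to a few reads. IL1RN, the interleukin-1 receptor antagonist gene, had 0 reads in KO1 and 1 in KO2, against 1495 in WT. TNFSF10 had 1 read in KO1 and 0 in KO2, against 863 in WT, and TNFSF15 had 10 and 1, against 1605. The limma adjusted p of these falls was 1.24e-06 to 3.85e-06.

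Of 21 other NF-kB target genes 15 were tested. Between KO2 and KO1, 12 of them were lower and 1 was higher, MMP9, whose call was lost without any single knockout library. Against WT they split, 8 higher and 4 lower in KO1, and 6 higher and 7 lower in KO2. BIRC3, an inhibitor of apoptosis gene, was at 11.6 and 10.5 FPKM in KO1, 2.76 and 3.31 in KO2, and 16.7 and 15.7 in WT. Like CXCL1 it was highest in WT and lowest in KO2 (KO2 minus KO1 -1.58 ± 0.08 log2, limma adjusted p = 7.44e-04). TNIP1, a partner of TNFAIP3, rose slightly in KO1 (0.20 ± 0.03 log2, limma adjusted p = 0.00213) and fell in KO2 (-0.69 ± 0.03, adjusted p = 1.63e-05).

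The widest differences from WT in this list ran in opposite directions. LCN2, the gene of the antibacterial protein lipocalin, fell 215-fold in KO1 and 441-fold in KO2, against a WT mean of 211 FPKM. C3, the central complement gene, rose 136-fold in KO1 and 122-fold in KO2, to 154 and 138 FPKM. CD83, a surface protein gene of activated immune and epithelial cells, rose 5.02-fold and 3.56-fold, and BCL2L1, a survival gene, fell by 0.70 and 1.12 log2 in KO1 and KO2 (limma adjusted p of these genes at most 1.13e-05). So C3 and CD83 stood with ICAM1 and IL32 above WT in both groups, and LCN2 and BCL2L1 stood below.

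Among 20 other chemokine genes 5 passed the filter. CXCL16 fell to 4.64 ± 0.354 FPKM in KO1 and 7.04 ± 0.0714 in KO2, against 24.9 ± 0.239 in WT (SD, n = 2 each). It was higher in KO2 than in KO1 (0.51 ± 0.05 log2, limma adjusted p = 0.00308), the direction that none of the 10 genes had. CCL5, a chemokine for T cells and monocytes, was at 6.35 and 6.11 FPKM in KO1, 1.15 and 0.891 in KO2, and 7.93 and 9.76 in WT. Its fall in KO1 (-0.44 ± 0.11 log2, limma adjusted p = 0.0153) was lost without KO1 replicate 1, KO1 replicate 2 or WT replicate 2 (adjusted p = 0.0529, 0.0702 and 0.0774). Its fall in KO2 was wider (-2.28 ± 0.11, adjusted p = 2.41e-05). CXCL14, an epithelial chemokine, had 153 reads in WT and 0 in all 4 knockout libraries.

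Receptors for the chemokines were hardly detected. CXCR1 had 0 reads in the knockout libraries and 11 in WT, CXCR2 had 2 reads in KO2 and 0 elsewhere, and CCR6 had 0 reads in KO1, 1 in KO2 and 1 in WT. The ICAM1-binding integrin genes ITGAL and ITGAM were at or below 0.106 FPKM in every library. ITGB2, the beta chain shared by leukocyte integrins, rose 2.57-fold in KO1 and 2.34-fold in KO2 above 0.855 FPKM in WT. The CXCL12 receptor genes CXCR4 and ACKR3 rose in both groups, CXCR4 to 7.91 ± 0.173 FPKM in KO1 and 8.88 ± 0.491 in KO2, against 0.0435 ± 0.0269 in WT (SD, n = 2 each), while CXCL12 itself had 0 reads throughout. Leukocyte markers stayed low in all groups: 12 of them summed to 2.23 to 2.40 FPKM in KO1, 3.59 to 4.24 in KO2 and 1.72 to 1.84 in WT. CD3D and MS4A1 had 0 reads in every library, and PTPRC, the pan-leukocyte gene, had 0 reads in KO2 and at most 0.03 FPKM in the other libraries.

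Genes on either side of PTGS2 in prostaglandin synthesis also differed from WT. PLA2G4A, the phospholipase that releases arachidonic acid, rose to 28.9 FPKM in KO1 and 34.6 in KO2, against 7.23 in WT (limma adjusted p = 8.87e-06 and 5.72e-06). PTGES, the synthase that makes prostaglandin E2 from the product of PTGS2, was at 157 and 155 FPKM in KO1, 66.5 and 65.8 in KO2, and 15.3 and 15.2 in WT. It rose 10.2-fold in KO1 and 4.34-fold in KO2, and KO2 was 2.36-fold below KO1 (limma adjusted p = 1.61e-04). The constitutive cyclooxygenase gene PTGS1 averaged 3.55 ± 0.0334 FPKM in KO1, 0.680 ± 0.0901 in KO2 and 3.09 ± 0.136 in WT (SD, n = 2 each). It fell in KO2 (-1.29 ± 0.07 log2, limma adjusted p = 3.15e-05) and missed the threshold in KO1 (0.15 ± 0.07, adjusted p = 0.0882), where library-size scaling called it higher (adjusted p = 0.0196).

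PTGER2, a prostaglandin E2 receptor gene, had 0 reads in KO1 and 13 in KO2, against 31.4 ± 2.02 FPKM in WT (SD, n = 2), and fell at least 596-fold in KO1. ABCC4, an exporter of prostaglandins, rose 1.64-fold and 1.56-fold. Of 15 genes in this list 8 were tested. KO1 had 5 higher and 2 lower than WT, KO2 had 4 higher and 3 lower, and between KO2 and KO1 4 were lower and 0 higher. Without any single knockout library 2 were lower. The count of 0 higher became 1 with a replicate block, a pseudocount of 0.1, quantile normalization, library-size scaling, only the 4 libraries compared or either WT library left out, and 2 with voom.

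**Figure D4:**
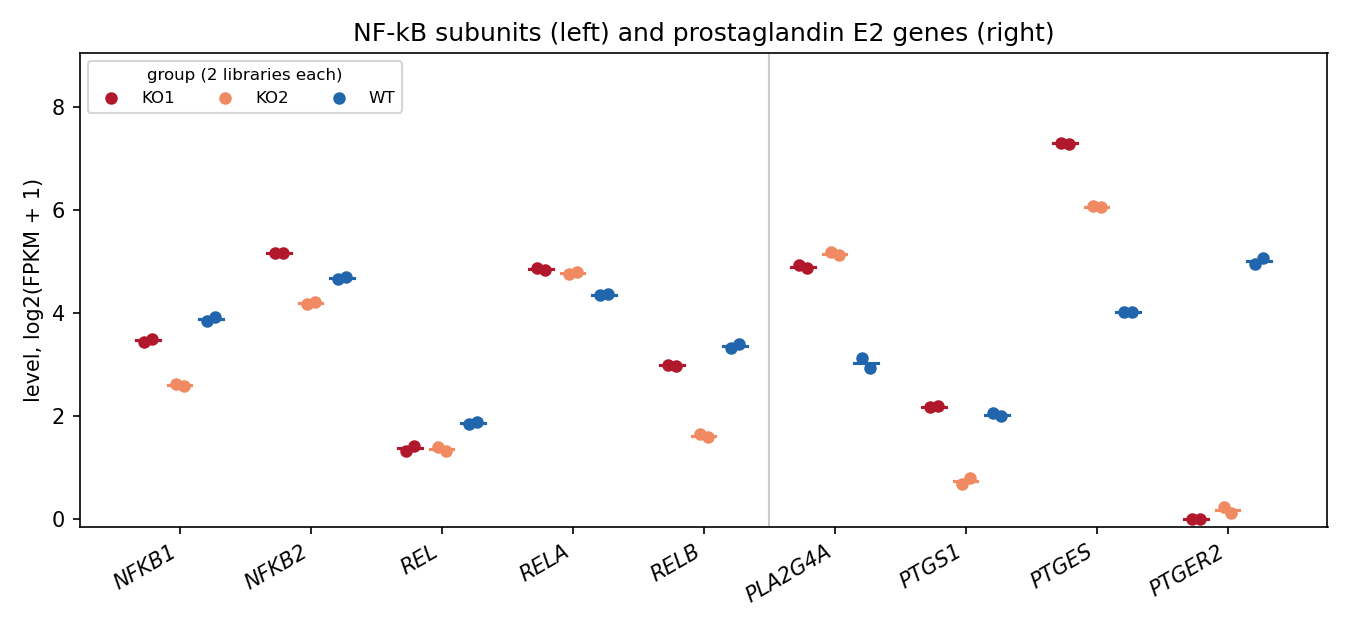
Level as log2(FPKM + 1) of 5 NF-kB subunit genes and 4 prostaglandin genes in each library, with a bar at the mean of the 2 libraries of KO1, KO2 and WT. NFKB1, NFKB2 and RELB stand lowest in KO2, PTGES stands in the order KO1, KO2, WT, and PTGER2 is near 0 in both knockout groups.

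The 5 protein-coding genes whose 6-library profile lay closest to CXCL8 (Euclidean distance of gene-centred log2(FPKM + 1) values) were MUC5AC, MAGEA11, IL6, CHAC1 and MAGEA1, at distances of 0.476 to 1.5. MUC5AC, the main secreted mucin gene of gastric surface cells, was at 8.78 and 9.54 FPKM in KO1, 0.175 and 0.176 in KO2, and 0.228 in both WT libraries. IL6 was the only one of the 5 that belonged to the pathway lists. CHAC1, a glutathione-degrading enzyme gene, was at 23.1 ± 1.08 FPKM in KO1, 4.80 ± 0.472 in KO2 and 3.11 ± 0.355 in WT (SD, n = 2 each). MAGEA11 and MAGEA1 belong to a family of closely related copies, so their reads may be shared.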

How the data were processed

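RNA from 6 NCI-N87 samples was measured by sequencing. The authors deposited FPKM values, per the file headers. Per the submitters' processing notes, HISAT2 2.0.5, featureCounts 1.5.0-p3 and the hg38 build were used. Their roles, the strand setting, multi-mapping and annotation are unstated in the sources used here. All 58735 gene IDs matched GENCODE release 29, which gave names, exon lengths and GRCh38 positions. Multiplied by exon length, 100% of the values in a library lay within 0.1 of whole multiples of the same step, and these multiples were taken as read numbers. They cover counting error only, since reads are not independent molecules.

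The 10 genes and the lists were chosen with earlier results of these data known. Genes with at least 1 FPKM in 2 libraries (16046) were fitted as log2(FPKM + 1) in limma 3.58.1 (R 4.3.3; a mean per group, trend, 6 libraries, Benjamini-Hochberg adjustment); such differences understate changes of low genes. Folds are ratios of mean FPKM, and against 0 reads use a floor of 3 reads per library. The fit was tested on simulated data. Replicate pairs differed beyond counting error (chi-square per degree of freedom 1.80 in KO1, 2.40 in KO2 and 2.46 in WT). SOD2, a name with 2 IDs, was left out. Named list genes are called genes of at least 1 FPKM in a group with the smallest adjusted p, 4 per list for the knockout average against WT and 2 for KO2 against KO1, plus the subunits, receptors and cytokines listed in the design. Alternatives are another pseudocount, no filter, other scalings, voom, a replicate block, 4 libraries only, and each library left out.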

Additional observations from a re-analysis of the deposited data

Results flagged for a closer look

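In CXCL8, CCL20 and 8 of the 88 tested pathway genes every KO1 library stood above WT and every KO2 library below it. In 1 pathway gene the reverse held. The knockout groups thus lay on opposite sides of wild type in these genes. The share of all tested genes with this pattern was not counted, so whether these numbers are unusual is not known. Taken singly, 45.1% of tested genes stood above WT in KO1 and 44.3% stood below WT in KO2. CCL20 in KO2 rested on 2 reads in all. CXCL8 differed by -3.26 log2 and CCL20 by -1.12 log2 between KO2 and KO1; as genes chosen on these levels, they are given no p-value. For the others limma tested the KO2 minus KO1 difference itself. NFKB2 differed by -0.965 log2 (adjusted p = 3.19e-04), PTGS1 by -1.44 (adjusted p = 5.80e-04), TNIP1 by -0.881 (adjusted p = 3.49e-04) and TRAF2, an adaptor of TNF receptors, by -0.525 (adjusted p = 0.00132). Outside the rule for named genes, IL18 differed by -1.17, IKBKE by -0.736, BCL3 by -0.551 and IKBKB by -0.22 (limma adjusted p = 0.00151, 0.00148, 0.00388 and 0.0391). TRADD, the gene with the reverse order, differed by 0.254 (limma adjusted p = 0.0330). Against WT limma called neither IKBKB nor TRADD in either group, BCL3 and IKBKE only in KO1, and PTGS1 only in KO2. TRAF2 was at 19.0 ± 0.0962 FPKM in KO1, 12.9 ± 0.464 in KO2 and 16.5 ± 0.341 in WT (SD, n = 2 each). The groups hold 2 libraries each, too few to look for a sample that stands apart.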

How the results depend on the processing

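Counts are those of genes past the limma threshold. The 4 pathway genes higher in KO2 than in KO1 became 1 without a filter on low values, 2 with the replicate block, 6 with quantile normalization, library-size scaling or voom, and 1 to 4 with single libraries left out. The 2 of the 10 genes lower in KO1 than in WT, a count given as a description only, became 1 with a pseudocount of 0.1 or without a filter. The count was also 1 with library-size scaling, with the replicate block and with only the 4 libraries compared. The other counts over the pathway genes or the 10 genes stayed within 1.5 times. The 40 pathway genes lower in KO2 than in KO1 ranged from 29 to 42. Same-numbered libraries did not deviate together (correlation -0.04 to 0.02 over 16046 genes), so no shared effect of the replicate number was seen. This cannot tell whether same-numbered libraries were prepared together. Library-size scaling moved the median of all genes to 0.13 log2 in KO1, against 0.02, and to 0.14 in KO2, against 0.01. No called difference of a named gene changed sign. The call of IL6 in KO2 against WT was lost without either WT library (adjusted p = 0.0551 and 0.0549), and that of NFKBIB in KO2 against KO1 without KO1 replicate 2 (adjusted p = 0.0545). PLA2G4A, not called in KO2 against KO1, was called higher in 7 alternatives. Where 1 library was left out, the lone library was taken to vary like the other groups. At this depth CCL20 in KO2, TNF and the chemokine receptors rest on few reads.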
